A study of Mus musculus with 2 samples.

Results

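In 754 places of the mouse genome, 2 protein-coding genes lie head to head on opposite strands with their 5' ends 1 kb or less apart, so that both can be transcribed outward from the DNA between them. These pairs were taken from the GENCODE M21 annotation of GRCm38, and they hold 1487 of its 21938 protein-coding genes, or 6.78%. No measured value enters the rule that takes them, though it was set with earlier results of these data known. The distance between the 5' ends had a median of 129.5 bp, with quartiles of 67 and 240 bp and a range of 1 to 987 bp. Of the pairs, 42 share a gene with another pair, 84 contain a predicted gene, 20 lie on the X chromosome and 0 on the Y. They were set beside 17682 single promoters, which are protein-coding gene 5' ends with no other protein-coding 5' end within 5 kb.

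The mark was H3K27ac, the acetylation of lysine 27 of histone H3, measured by chromatin immunoprecipitation and sequencing in a single group of samples. The cells were primary macrophages grown from bone marrow of C57BL/6J mice and left unstimulated, with 2 biological replicates from separate biosamples that carry one donor entry. Each library began with 10 ng of DNA and a size range of 350 to 480, in a unit not stated, and sex, age and stage were not collected or unknown. Because the donor entry is shared, differences between animals may be missing from the spread between replicates. Promoters of 8 of 8 macrophage marker genes carried a peak in each replicate, while those of 7 marker genes of other tissues carried 0.

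The data are 4 lists of peaks, with 29543 peaks in replicate 1, 29345 in replicate 2, 32877 in the replicated list and 32909 in the pooled pseudoreplicated list. The last 2 lists use both libraries together and have no error of their own. The fold of a peak is the authors' enrichment over background, and its rank is the percentile of that fold within its own list, with 100 as the strongest. A region is called marked here when a peak of each replicate touches it. The region of a pair is the span between its 5' ends plus 1 kb on each side, and the region of a single promoter is the 1 kb on each side of its 5' end. No source used here gives the read depth, and regions with no peak may hold acetylation that missed the authors' threshold.

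Active promoters in mammals are nucleosome-free over their core, and the nucleosomes on either side carry H3K27ac. At a head-to-head pair the flank upstream of one gene is the body of the other, so both flanks lie in annotated genes. Whether both genes are transcribed in these cells was not measured. Such pairs are known to lie mostly in CpG islands, to lack TATA boxes and to include many genes for DNA repair, the cell cycle and mitochondria. Factors known to bind them include members of the ETS family, NRF1, NF-Y, YY1 and ZNF143.

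The DNA between the 5' ends is printed for 9 pairs, to show how short and how varied in sequence these shared promoters are. The first 4 pairs carried strong or typical peaks, the next 3 contain an immune gene, Rad51c/Tex14 carried peaks on one side alone, and Col4a4/Col4a3 carried none. Each sequence is the plus strand of GRCm38.p6, from RefSeq, read 5′ to 3′ from the minus-strand gene, named first, to the plus-strand gene, named second. Capitals mark words known from promoters, on either strand: CCGGAAG for ETS factors, GGGCGG for SP factors, CCAAT for NF-Y and GCGCATGC for NRF1.
Mrps18b/Ppp1r10, chr17:35916390-35916433: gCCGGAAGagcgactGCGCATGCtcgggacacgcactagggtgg
Tada3/Arpc4, chr6:113377884-113378114: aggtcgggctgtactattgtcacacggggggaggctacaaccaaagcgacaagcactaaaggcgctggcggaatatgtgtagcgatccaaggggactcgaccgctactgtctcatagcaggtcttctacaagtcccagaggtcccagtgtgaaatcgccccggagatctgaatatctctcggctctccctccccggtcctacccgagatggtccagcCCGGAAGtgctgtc
Sqstm1/Mgat4b, chr11:50210828-50210889: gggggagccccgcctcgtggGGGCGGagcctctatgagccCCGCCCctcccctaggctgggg
Mrps12/Sars2, chr7:28741821-28741991: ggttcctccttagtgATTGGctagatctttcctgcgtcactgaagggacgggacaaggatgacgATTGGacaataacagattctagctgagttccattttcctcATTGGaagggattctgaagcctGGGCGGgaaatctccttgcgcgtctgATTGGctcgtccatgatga
Nr1h3/Acp2, chr2:91202835-91202884: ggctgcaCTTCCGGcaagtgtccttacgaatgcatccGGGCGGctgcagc
Pus7l/Irak4, chr15:94543548-94543642: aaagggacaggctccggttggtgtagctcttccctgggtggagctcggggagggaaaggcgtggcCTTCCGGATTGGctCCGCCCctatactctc
Ifit1bl2/Ifit1, chr19:34640744-34640870: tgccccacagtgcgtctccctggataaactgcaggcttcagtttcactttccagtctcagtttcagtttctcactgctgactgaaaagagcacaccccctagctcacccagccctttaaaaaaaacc
Rad51c/Tex14, chr11:87404955-87405064: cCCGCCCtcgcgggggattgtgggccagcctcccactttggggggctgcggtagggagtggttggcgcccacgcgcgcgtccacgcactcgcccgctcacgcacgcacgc
Col4a4/Col4a3, chr1:82586850-82586920: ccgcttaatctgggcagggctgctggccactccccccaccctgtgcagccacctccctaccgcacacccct

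Pairs were marked far more often than single promoters in both libraries. A peak touched 611 of 754 pairs, or 81.0%, in replicate 1 and 624, or 82.8%, in replicate 2, against 31.1% and 32.3% of single promoters. Both replicates had a peak at 601 pairs, or 79.7% (95% Wilson interval 76.7 to 82.4%, which covers counting error only), against 30.1% of single promoters and 36.1% of all protein-coding 5' ends. The difference between pairs and single promoters was 49.9 percentage points in replicate 1 and 50.5 points in replicate 2. In an exact two-sided sign-flip permutation test over the 2 libraries p was 0.5, which is the smallest that 2 libraries can give. A window at the midpoint of the pair, as wide as that of a single promoter, left the share at 79.6%. The region of a pair holds the 5' ends of 2 genes, and a peak at either is enough to mark it. The region of a single promoter holds 1. What this adds to the difference was not tested.

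Of the pairs without a peak in both replicates, most had none in either replicate, and the peaks of the rest were weak. There were 10 pairs with a peak in replicate 1 alone, 23 in replicate 2 alone and 120 in neither replicate. The 33 pairs with a peak in 1 replicate had a median rank of 13.8 and a highest rank of 38.3, and 23 of them had a peak in the replicated list. Of the 120 pairs, 12 had a peak once the libraries were analysed together. None of the 4 lists had a peak at the other 108 pairs, or 14.3% of all.

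CpG content differs between these sets of promoters. The median was 6.8 CpG per 100 bp over the central 1000 bp of pairs, against 3.4 at single promoters, with a GC content of 60.2% against 53.9%. Within each CpG class pairs were still marked more often, with a peak at either gene again enough for a pair. In the richest class, with 6 or more CpG per 100 bp, 414 of 490 pairs, or 84.5% (81.0 to 87.4%), were marked, against 52.2% (50.8 to 53.5%) of 5441 single promoters. With 4 to 6 CpG per 100 bp the shares were 79.8% of 198 pairs and 46.6% of single promoters, and with 2 to 4 they were 59.5% of 42 pairs and 24.3% of single promoters. Under 2 CpG per 100 bp only 4 of 24 pairs, or 16.7%, were marked, against 8.2% of single promoters, and here the intervals met.

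**Figure D1:**
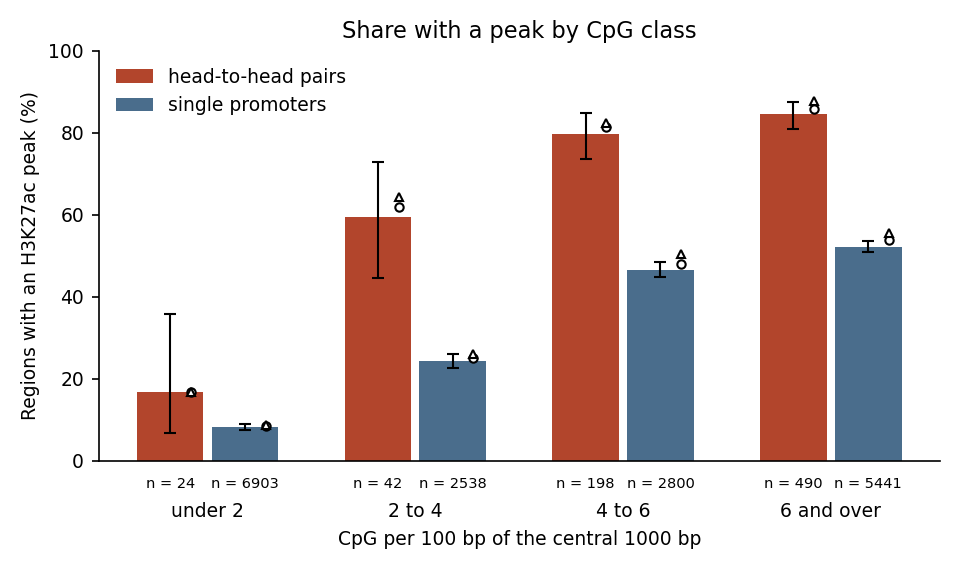
Share of regions with an H3K27ac peak (%) by CpG per 100 bp of the central 1000 bp, for head-to-head pairs (left bar of each class) and single promoters (right bar). Bars give the share with a peak in both replicates, with its 95% Wilson interval, circles replicate 1 and triangles replicate 2. Pairs stand above single promoters in every class, at 84.5% against 52.2% in the richest.

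A non-coding start nearby on the other strand was also accompanied by more frequent marking, though by less. Such a start is that of any gene not annotated as protein-coding, before or after the 5' end. It need not lie head to head, so the arrangement is not that of the pairs. Of 1526 single promoters with a non-coding start on the other strand within 1 kb, 51.3% were marked, against 28.1% of the other single promoters. In the richest CpG class the shares were 59.7% with such a start and 50.7% without, below the 84.5% of protein-coding pairs. Pairs with a predicted gene were marked in 67.9% of 84 cases, and pairs without one in 81.2% of 670. Single promoters of predicted genes were marked in 7.2% of 1718 cases, and the other single promoters in 32.6% of 15964.

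By the distance between the 5' ends, the share of marked pairs was 85.9% up to 50 bp, 77.7% from there to 100 bp, 78.6% to 200 bp, 83.0% to 300 bp, 83.3% to 500 bp and 68.6% to 1000 bp. CpG content moved with the distance, since 21 of the 70 pairs beyond 500 bp are in the richest CpG class, and of these 20 were marked. Of 108 head-to-head neighbours beyond the limit, at up to 2000 bp, 57.4% were marked. The pairs just inside the limit, from Smim7/Tmem38a at 967 bp to Btf3l4/Txndc12 at 987 bp, were marked in 3 of 5 cases. The 5 just outside it, from Serpina7/4930513O06Rik at 1007 bp to Ppt2/Prrt1 at 1023 bp, were marked in 4 of 5. On the X chromosome 11 of 20 pairs, or 55.0%, were marked, against 79.7% of all pairs. Single promoters were not split by chromosome, so whether this is particular to pairs was not tested.

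Once marked, pairs did not carry clearly stronger or wider peaks. The median fold of the highest peak at 601 marked pairs was 10.3 in replicate 1 and 10.8 in replicate 2, and its median rank was 68.4 and 69.4, against 66.3 and 67.8 at 5330 marked single promoters. That is a difference of 2.12 and 1.62 percentile points (exact two-sided sign-flip p = 0.5 over 2 libraries). The highest peak was 914 and 1012 bp wide at pairs, against 949 and 1045 bp at single promoters, a difference of -35 and -33 bp within the libraries (exact two-sided sign-flip p = 0.5). The sign was turned in both libraries at 2 to 4 and at 4 to 6 CpG per 100 bp. In the richest class the libraries differed in sign, with 883.5 and 936 bp at pairs, against 854 and 944 bp at single promoters. The highest peak was less often a weak one at pairs, whose wider region can hold more peaks to take it from. What this adds was not tested. In replicate 1 the lowest 25% of the list held the peaks of 5.8% of pairs and the upper 25% those of 38.9%, against 9.2% and 37.5% of single promoters. Replicate 2 gave 3.8% and 41.9% of pairs, against 7.0% and 39.7% of single promoters. The upper 10% held 13.3% and 14% of pairs, against 15.5% and 16.2% of single promoters, with overlapping intervals. Across the 601 marked pairs, which share their libraries and control, Spearman's rho between replicates was 0.95 for fold and 0.82 for width.

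Into the gene, the peaks of pairs ended nearer to the 5' ends than those of single promoters. From each 5' end of a pair the peaks reached a median of 734.5 bp into the gene in replicate 1 and 751 bp in replicate 2, against 1003 and 1034 bp downstream of single promoters. The difference was -268.5 and -283 bp within the libraries (exact two-sided sign-flip p = 0.5 over 2 libraries). The SD of the medians over the 2 libraries was 11.7 bp for pairs and 21.9 bp for single promoters. Both genes of a pair had like values, with 730 and 747 bp on the minus-strand side and 739 and 751 bp on the plus-strand side. Upstream of single promoters the reach was 601 and 614 bp, so a pair lay between the 2 sides of a single promoter. Within the richest CpG class the mean of the replicates' medians was 791 bp at pairs, against 1084 bp downstream of single promoters.

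The same pattern showed position by position. At 250 bp into the gene, 68.4% of plus-strand and 69.7% of minus-strand genes of marked pairs lay under a replicate 1 peak, against 58.0% of marked single promoters. At 1000 bp the order was turned, with 30.3% and 27.1% of the pairs' genes against 50.3% of single promoters. At 2000 bp the values were 7.0% and 6.7%, against 19.3%. Replicate 2 gave 71.4% and 74.7% against 64.7% at 250 bp, and 30.8% and 29.3% against 52.1% at 1000 bp. Directly at the 5' end coverage dipped in both sets, to 45.4% and 43.3% of the pairs' genes against 40.4% of single promoters in replicate 1.

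**Figure D2:**
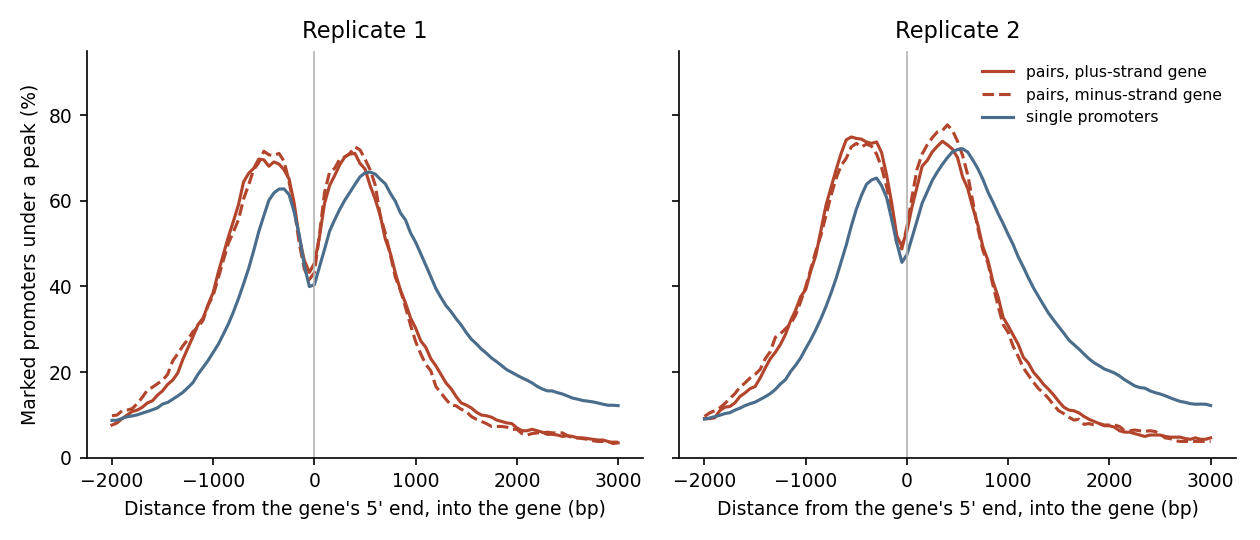
Share of marked promoters whose DNA lies under a peak (%), by distance from the gene's 5' end in bp (positive values lie inside the gene), in each replicate, for plus-strand genes and minus-strand genes of 601 pairs and for 5330 single promoters. The curves of both genes of a pair dip at the 5' end and fall below the curve of single promoters beyond about 500 bp, to 30.3% and 27.1% against 50.3% at 1000 bp in replicate 1.

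Peaks most often lay on both genes rather than on one. In replicate 1 peaks extended beyond both 5' ends at 426 of 611 pairs with a peak, or 69.7%, and in replicate 2 at 450 of 624, or 72.1%. At single promoters 65.2% and 68.1% had peaks on both sides, while 22.8% and 21.6% had them downstream alone. One peak covered both 5' ends of a pair in 28.8% of cases in replicate 1 and 35.1% in replicate 2. In 22.4% and 18.1% of cases peaks lay on both sides and covered neither 5' end, which left a gap between them of 390 and 370 bp at the median. The 5' ends of such pairs lay 92 and 88 bp apart at the median. The summit of the highest peak fell between the 5' ends in 8.5% and 7.7% of cases. The other summits lay 280 and 271 bp beyond the nearer 5' end at the median, against 453 and 426 bp for summits downstream of single promoters. Summits upstream of single promoters lay 371 and 365.5 bp away at the median.

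Within a pair the longer side was the same in both libraries at 513 of 601 marked pairs, or 85.4% (82.3 to 88.0%). It was the plus-strand side at 260 pairs and the minus-strand side at 252. The rest of the 513 had equal reach on both sides in both libraries, which was counted as the same. Where the sides differed by at least 500 bp in both replicates, the longer side was the same at 256 of 257 pairs. These 256 were split evenly, with 128 longer on the plus-strand gene and 128 on the minus-strand gene. At 124 pairs, or 20.6% of those marked, peaks extended beyond 1 gene alone in both replicates and on the same side, and at 0 pairs on opposite sides. Spearman's rho between replicates was 0.88 for the difference of reach over the 601 pairs.

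**Figure D3:**
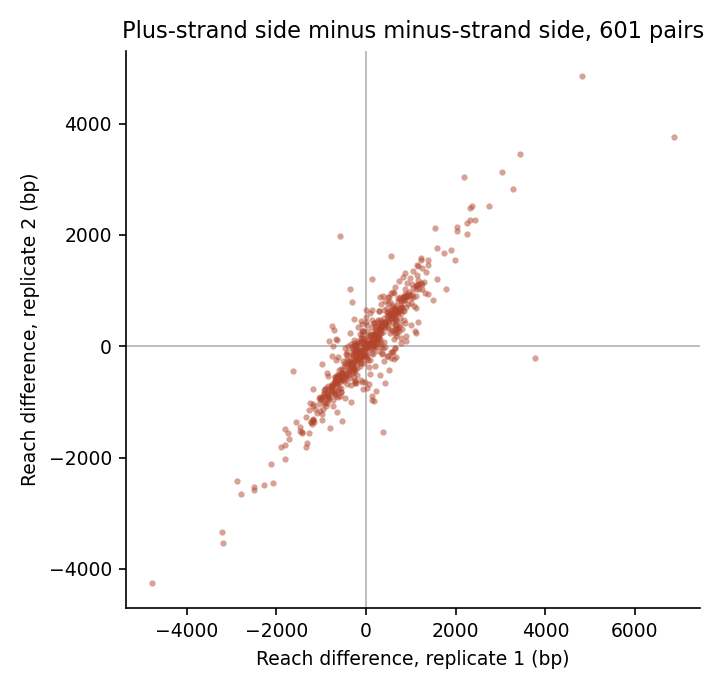
Difference of reach in bp, plus-strand side minus minus-strand side, in replicate 1 (x axis) and replicate 2 (y axis), with 1 point for each of 601 marked pairs. Points follow the diagonal, and of 257 pairs past 500 bp in both replicates 256 keep their sign.

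At the pairs of most uneven reach the peaks extended over several kb of 1 gene. At Vipas39/Ahsa1 the peaks ran 6254 and 6035 bp into Vipas39, which sorts proteins to late endosomes, and 1491 and 1789 bp into Ahsa1, an activator of the chaperone Hsp90. At Zfp91/Lpxn they ran 7342 and 7162 bp into Lpxn, the adhesion protein leupaxin of blood cells, and 479 and 3400 bp into the zinc finger gene Zfp91. The 3400 bp in replicate 2 came from a separate peak of fold 12.4, apart from the peak over both 5' ends. At Ddias/Prcp they ran 5335 and 5437 bp into Prcp, a lysosomal peptidase, and 525 and 582 bp into Ddias. Each of these 3 gave 1 peak over both 5' ends in both replicates.

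Other pairs had peaks beyond 1 gene alone. At Sptbn4/Blvrb the peak ran 3436 and 3448 bp into Blvrb, a biliverdin reductase of heme breakdown, and 0 bp in either replicate into Sptbn4, a spectrin of neurons. At Rad51c/Tex14 the highest fold was 3.61 in replicate 1 and 5.53 in replicate 2, and the peaks reached 978 and 945 bp into Rad51c, a recombination gene, and 0 bp into Tex14, a gene of germ cell bridges. At Nt5c3/Vmn1r4 the peak reached 778 and 602 bp into the vomeronasal receptor gene Vmn1r4 and 0 bp into the nucleotidase gene Nt5c3. Of the chemosensory receptor genes, Vmn1r4 is the only one in a pair. Peaks lay on both sides at the remaining pairs of most uneven reach. At Fkbp15/Slc31a1 the reach was 4427 and 4270 bp into Fkbp15 and 1220 and 939 bp into the copper importer gene Slc31a1. At Nhlrc3/Proser1 it was 4214 and 4476 bp into Nhlrc3 and 1030 and 941 bp into Proser1.

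The pair of highest fold in the replicated list was Tada3/Arpc4, whose genes code for an adaptor of histone acetyltransferase complexes and a subunit of the actin-branching Arp2/3 complex. It had a single peak of fold 42.2 in replicate 1 and 43.7 in replicate 2, at ranks 99.5 and 99.6, with widths of 4165 and 3981 bp. Fbxo24/Lrch4, slightly higher in replicate 1, had 42.3 and 40.9, and Fbxo24/Gm20605, with a predicted gene, shares that peak. Anxa5/1810062G17Rik, which holds the gene for the phospholipid-binding annexin A5, had 40.6 and 41.2. Top3a/Smcr8, a topoisomerase gene and an autophagy gene, had 37.9 and 40.1. Sqstm1/Mgat4b had 38 and 34.5, and Sqstm1 codes for the autophagy receptor p62. In both replicates the folds of these pairs stood at rank 98.2 or above.

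The 10 pairs of highest fold include 4 more. Fam162a/Ccdc58 had folds of 37.0 and 37.5. Gart/Son, a purine synthesis enzyme and a splicing protein, had 37.9 and 35.5. Mrps18b/Ppp1r10, a mitochondrial ribosome subunit and a nuclear phosphatase regulator, had 33.4 and 35.2. Psme2/Rnf31 had 33.9 and 33.7, and joins a proteasome activator subunit to the catalytic subunit of the linear ubiquitin ligase. At Mrps18b/Ppp1r10 replicate 1 split into 2 peaks what replicate 2 gave as 1 of 5124 bp.

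**Figure D4:**
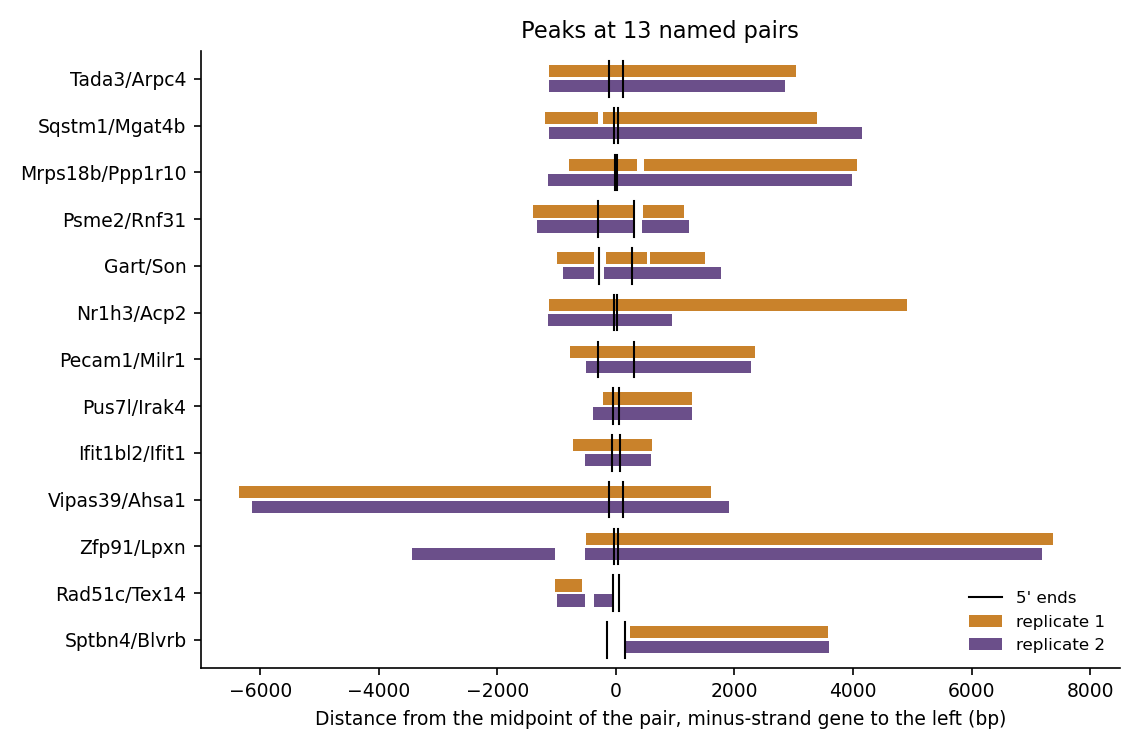
Peaks at 13 named pairs by distance from the midpoint of the pair in bp, with the minus-strand gene, named first, to the left. Bars are peaks of replicate 1 (upper) and replicate 2 (lower), and black lines are the 5' ends. Most pairs have peaks on both sides, while Rad51c/Tex14 and Sptbn4/Blvrb have them on 1 side alone in both replicates.

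Immune genes are rare in these pairs. Of 224 listed macrophage and immune genes 5 stand in a pair, or 2.23%, while 6.78% of all protein-coding genes do. All 5 pairs were marked, against 152 of 189 single promoters of the list, or 80.4%, and against 79.7% of all pairs. Nr1h3/Acp2 joins the oxysterol receptor LXR alpha to a lysosomal acid phosphatase. Its folds were 27.7 in replicate 1 and 18.9 in replicate 2, and its peak was 6050 bp wide in replicate 1 and 2094 bp in replicate 2. That difference lay on the Acp2 side, where the peak reached 4888 and 919 bp. Pecam1/Milr1, the adhesion receptor CD31 and an inhibitory receptor of mast cells, had folds of 33.6 and 32.5 with only 1.7 CpG per 100 bp. C2/Ehmt2, a complement component and the H3K9 methyltransferase G9a, had 18.6 and 20.2.

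Weaker peaks lay at the other immune pairs. Pus7l/Irak4 had folds of 10.3 and 12.9, and its peak reached 1234 and 1232 bp into Irak4, the kinase of Toll-like receptor signalling, against 177 and 339 bp into Pus7l. Ifit1bl2/Ifit1, a pair of interferon-induced genes, had folds of 5.85 and 6.03 at ranks 39.9 and 41.7, with 0.7 CpG per 100 bp. The sequence of this pair, printed above, holds none of the words searched.

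Genes of DNA replication and repair are common in pairs, with 44 of 146 listed genes, or 30.1%, while 6.78% of all protein-coding genes stand in one. Of their 45 pairs 38 were marked, or 84.4%, near the 79.7% of all pairs, against 65.8% of the list's 76 single promoters. Brca1/Nbr1, a repair gene and an autophagy receptor gene, had folds of 24.9 and 27.3. Mcm4/Prkdc, a subunit of the replicative helicase and the catalytic subunit of DNA-dependent protein kinase, had 10.5 and 10.4. Atm/Npat, the damage kinase and an activator of histone genes, had 6.19 and 8.88 with peaks on both sides. Wrap53/Trp53, which holds the gene of p53, was not in the list and had 24.6 and 17.8. Pms1/Ormdl1, Pxmp2/Pole and Tsc2/Nthl1 had no peak in either replicate and were chosen after their values were seen, from the unmarked pairs of the list.

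Mitochondrial genes fall in 2 lists. For mitochondrial translation, import and folding, 24 of 25 pairs were marked, or 96%, against 74.2% of 66 single promoters, and Mrpl37/Cyb5rl was the exception. Mrps12/Sars2, a ribosomal protein and a tRNA synthetase of mitochondria, had folds of 13.6 and 15.4. Mrpl49/Fau had 11.7 and 13.1 from separate peaks on both sides. For the respiratory chain 18 of 24 pairs were marked, or 75%, near the 79.7% of all pairs, against 67.3% of 55 single promoters. The difference between these lists was not tested. Ndufa4/Phf14 had 19.8 and 19.6 and a reach of 570 and 597 bp into Ndufa4, the respiratory subunit, and of 0 bp into Phf14. Rps28/Ndufa7 had 13.4 and 14.2 with a span of 10 bp.

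Other lists of basic functions are set beside the 79.7% of all pairs. For the cell cycle and mitosis 20 of 21 pairs were marked, or 95.2%, against 77.3% of 75 single promoters. Ncapd2/Mrpl51, which holds a condensin subunit gene, had folds of 23.7 and 23, and Smc1b/Ribc2, with the meiotic cohesin gene Smc1b, had no peak in either replicate. This list also took in Cdk5, a kinase of neurons by its known role, at Cdk5/Slc4a2. For RNA processing and transcription 41 of 46 pairs were marked, or 89.1%, against 69.1% of 149 single promoters. Hnrnpa2b1/Cbx3, an RNA-binding protein and a heterochromatin protein, had 25 and 29.8, and Ptcd3/Polr1a, with the largest subunit of RNA polymerase I, had 27.2 and 27.3. For the proteasome and ubiquitin conjugation 8 of 9 pairs were marked, against 70.5% of 61 single promoters. The share of pairs in none of the lists was 77.6% of 554.

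Histone genes had the highest share in pairs, with 27 of 82 genes, or 32.9%, in 14 pairs. Of these 11 were marked, or 78.6%, near the 79.7% of all pairs, against 10 of 17 single promoters, or 58.8%. Bola1/Hist2h2ab and Hist2h2ac/Hist2h2be share their highest peak, of fold 26.7 and 26.5. Hist1h2bq/Hist1h2ao and Hist1h2ap/Hist1h2br had no peak in either replicate. Copies of histone genes are nearly identical, and how reads that match several copies were treated was not given, so the part this plays was not tested. For zinc finger proteins 17 of 22 pairs were marked, or 77.3%, again near that of all pairs, against 44.2% of 391 single promoters.

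Collagen, keratin, homeobox and chemosensory receptor genes were nearly absent from pairs. Of 242 collagen, keratin and homeobox genes 2 stand in a pair, which is Col4a4/Col4a3, a pair of basement membrane collagens that shares 71 bp of promoter. No list had a peak there, and 4 of the 208 single promoters of these genes were marked. Of 1481 chemosensory receptor genes 1 stands in a pair, and 3 of 1433 single promoters were marked.

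A high CpG content was not always accompanied by a peak. The pairs richest in CpG among those with no peak in any list and no predicted gene were Rfng/Gps1 with 13.8 CpG per 100 bp, Bend6/Dst with 13.7, Tada2b/Ccdc96 with 13, Bag5/Apopt1 with 12.9, Ccdc92/Zfp664 with 11.7 and Noc4l/Ddx51 with 11.4. They include genes of broad function, such as Gps1, a subunit of the COP9 signalosome, and Tada2b, a subunit of a histone acetyltransferase complex. The imprinted pairs Peg3/Usp29 and Sgce/Peg10 had no peak in any list either, with 4.6 and 6.3 CpG per 100 bp. They were chosen after their values were seen.

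In the richest CpG class the word of ETS factors differed most in percentage points between pairs and single promoters. Words were searched on both strands in 300 bp at the midpoint of a pair and, for single promoters, from 250 bp before to 50 bp after the 5' end. The window of a pair mostly holds the 5' ends of both genes, while that of a single promoter holds a single 5' end. What this adds to the differences, for this and the other words, was not tested. The ETS word CCGGAAG, as it stands in capitals at Mrps18b/Ppp1r10, Tada3/Arpc4, Nr1h3/Acp2 and Pus7l/Irak4, was found at 28.0% of pairs (24.9 to 31.3%), against 8.9% of single promoters and 10.8% of all protein-coding promoters. In the richest CpG class the shares were 31.6% of pairs and 14.8% of single promoters, and among marked promoters they were 30.3% and 18.9%. The word GAGGAAGT, known for PU.1, the ETS factor of macrophages, shares the letters GGAAG with the ETS word, but the same GGAAG cannot be part of both. It was found at 2.5% of pairs, 3.4% of single promoters and 3.2% of all promoters.

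The other words are given over all promoters and then within the richest CpG class. GGGCGG for SP factors was found at 68.0% of pairs against 40.7% of single promoters, but at 76.5% and 79.2% in the richest CpG class, and at 43.0% of all promoters. CCAAT for NF-Y was found at 44.8% of pairs against 38.8%, and in the richest class at 45.3% against 34.4%, with 39.0% of all promoters. The NRF1 word GCGCATGC was at 6.5% against 3.4%, and in the richest class at 6.1% against 6.0%, with 3.7% of all. CAAGATGG for YY1 was at 5.0% against 2.0%, and in the richest class at 5.5% against 2.6%, with 2.3% of all. ACTACANNT for ZNF143 was at 8.4% against 4.6%, and in the richest class at 6.5% against 3.5%, with 4.9% of all. TATAAA of the TATA box was rarer at pairs, with 4.4% against 13.7% of single promoters, 2.4% against 5.1% in the richest class, and 12.6% of all. TGANTCA for AP-1 was at 3.4% of pairs against 7.3%, and in the richest class at 2.7% against 3.2%, with 6.9% of all.

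**Figure D5:**
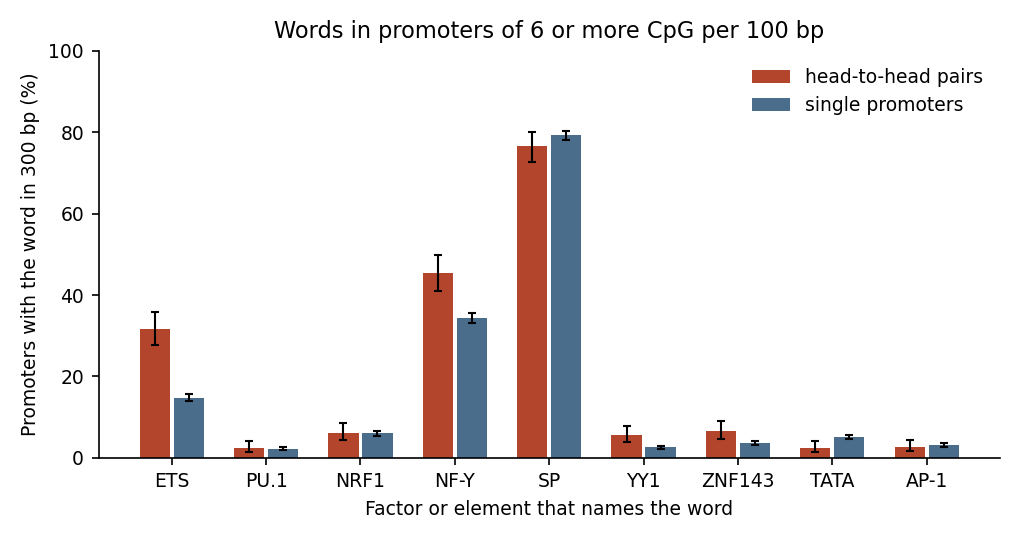
Share of promoters with each word in 300 bp (%) in the class of 6 or more CpG per 100 bp, for 490 head-to-head pairs (left bars) and 5441 single promoters (right bars), with 95% Wilson intervals. The ETS word is at 31.6% of pairs against 14.8% of single promoters, while the SP word is at 76.5% against 79.2%.

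Pairs with the ETS word were marked more often, but at lower ranks, and so were single promoters. Of 211 pairs with it 86.3% were marked, against 77.2% of 543 pairs without it. Among single promoters the shares were 63.5% with the word and 26.9% without. The word itself contains a CpG, and none of these shares was split by CpG class. Of all single promoters, 8.2% were marked in the poorest CpG class and 52.2% in the richest. The median rank of marked pairs with the word was 61.4 in replicate 1 and 63.5 in replicate 2, against 71.5 and 72.7 without it. At marked single promoters it was 62.5 and 63.9 with the word, against 67.1 and 68.5 without it. The words of ZNF143, SP and NF-Y showed the same pattern at pairs, with overlapping intervals of the share. For ZNF143 the shares were 87.3% and 79.0%, at ranks of 61.7 and 63.5 against 69.2 and 69.8. Pairs with the NRF1, YY1 or TATA word also had higher shares, of 93.9%, 89.5% and 87.9%, but not lower ranks in both replicates. With the AP-1 word the share was lower, at 76.9% against 79.8%. Marked single promoters with the ZNF143, SP, NF-Y, NRF1 or YY1 word also had lower median ranks in both replicates than those without it. Those with the TATA or AP-1 word did not. Of 19 pairs with the PU.1 word 18 were marked, at median ranks of 53.1 and 58.5, against 79.3% of pairs without it, at 69.1 and 69.8. Single promoters went the other way, with median ranks of 73.9 and 74.7 with the word and 65.6 and 67.8 without. A word is a match of letters, and binding of the factors was not measured here.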

How the data were processed

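H3K27ac peaks were analysed in 2 biological replicates of 1 group, so no comparison between conditions exists. The authors called peaks per replicate in 2 lists, and on both libraries together in the other 2, per the deposited text files. In the deposited lists a peak's fold is a linear ratio, its deposited q-value is on a −log10 scale, and its deposited summit is an offset in bp from the start. No source used here gives the aligner, the peak caller or the depth. No recorded step scaled folds between lists, so ranks within a list were compared.

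Pairs, single promoters and words were computed with Python 3.11.15, numpy 2.4.6, pandas 2.3.3, scipy 1.17.1 and matplotlib 3.10.9, from GENCODE M21 gene 5' ends and the RefSeq sequence of GRCm38.p6, with an overlap of at least 1 bp. The reach is the distance from a 5' end to the farthest edge of a peak in the region, and 0 where none extends beyond. The scoring was tested on simulated data and recovered 200 of 200 regions. Members, gene lists and words were chosen with earlier results of these data known.

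Named pairs were the 10 of highest and the 6 of widest replicated peak, 10 pairs known from textbooks, up to 8 immune pairs, the 6 unmarked pairs richest in CpG, the 6 of most uneven reach and up to 4 of each of 11 lists. Any other pair is said to be chosen after its values were seen or is named as the exception of a count. Regions are not replicates, so the test ran over libraries. Some pairs that the rule takes are not reported here.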

Additional observations from a re-analysis of the deposited data

How the results depend on the processing

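The share of marked pairs stayed above that of single promoters in 22 of 22 alternatives, with a difference of 8.07 points in the poorest CpG class to 52.3 points against single promoters without a non-coding start. Without a replicate the share was 81.0 to 82.8%. The reach into the gene was shorter at pairs in 8 of 8 alternatives, chosen after seeing the data, with a difference of -344 to -248 bp, and without a replicate it was 729.5 to 739.5 bp. The width was not settled, since its difference turned sign in 8 of 24 alternatives. Its median at pairs was 1034 bp with pairs whose 5' ends pass each other and 1047 bp with any transcript start, against 997 bp at single promoters. It was 1072 bp against 1054 bp in the replicated list and 1060 bp against 1050 bp in the pooled list. Summed over the peaks it was 1417 bp against 1344.5 bp. In the CpG classes it was 1322 bp against 1094.5 bp at 2 to 4, 1073 bp against 984 bp at 4 to 6, and 909.75 bp against 899 bp at 6 and over, where the libraries differed in sign. The rank turned in 2 of 22 alternatives, to 73.0 at pairs against 73.1 among the 20000 highest peaks and to 42.8 against 76.4 under 2 CpG per 100 bp, where 4 pairs were marked. Without a replicate the width was 908 to 984 bp and the rank 67.8 to 68.5. One peak over both 5' ends was found at 36.7% of pairs in the replicated list, at 40.0% with 100 bp windows at the ends, and at 28.8 to 35.1% without a replicate. The longer side was the same at 99.6% with a difference of at least 500 bp and at 88.2% by the summit, and the ETS word was at 36.1% of pairs in 600 bp, against 12.4% of single promoters. The cause of these changes was not tested. No paired analysis was possible because there is 1 group of samples with no second group to pair it with, while pairs and single promoters were compared within each library. Depth is unknown, peaks below the authors' threshold are unseen, gene 5' ends need not be the starts used in these cells, and 2 libraries cannot reach a p below 0.5.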

Other observations

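Further pairs with peaks beyond 1 gene alone are given here, chosen after their values were seen from the 124 such pairs. At Myl12b/Myom1 the peaks ran 1042 and 1036 bp into Myl12b, a myosin light chain of most cells, and 0 bp in either replicate into the muscle gene Myom1. At Cbln3/Khnyn they ran 2259 and 2022 bp into Khnyn and 0 bp into Cbln3, a gene of cerebellar granule neurons. At S100pbp/Yars they ran 1143 and 1274 bp into Yars, a tRNA synthetase gene, and 0 bp into S100pbp. At Utp18/Mbtd1 they ran 1334 and 1336 bp into Mbtd1 and 0 bp into Utp18, a ribosome assembly gene of broad use. At Rgl1/Arpc5 they ran 1246 and 1407 bp into Arpc5, an Arp2/3 subunit gene, and 0 bp into Rgl1.

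Among the 24 pairs with under 2 CpG per 100 bp, the marked ones beside Pecam1/Milr1 and Ifit1bl2/Ifit1 were Pinlyp/Xrcc1, with folds of 4.99 and 6.37, and Haghl/Ccdc78, with 6.37 and 4.16. The 20 without a peak in either replicate include tissue genes, such as Kirrel2/Nphs1 of kidney podocytes and Smyd1/Cd8b1 of muscle and T cells. They also include Rnf151/Rps2 and Slc27a5/Trim28, whose Rps2 and Trim28 are genes of broad use.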
